A study of Homo sapiens with 12 samples.

Results

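Type I interferon-stimulated genes are the genes that a cell switches on when interferon alpha or beta reaches its receptor. A list of 38 such genes was followed here in PC9 and HCC827 cells, 2 human lines of lung adenocarcinoma whose growth depends on mutant EGFR, a receptor tyrosine kinase, kept for 8 days in DMSO or in the EGFR kinase inhibitor erlotinib at 2 µM. The members are named genes of this class, each measured by the probe set that carries its symbol alone and has the highest mean signal over all arrays. In all, 37 of the 38 had such a probe set and all 37 were tested, among 13185 genes tested and 19775 genes measured; STAT2 was not analysed here. The series holds 12 arrays in 4 groups of 3: PC9 in DMSO, PC9 in erlotinib, HCC827 in DMSO and HCC827 in erlotinib. All cells were grown in RPMI with fetal bovine serum, and the protocols name no added interferon. Per the treatment protocol, DMSO cells were plated in dishes and erlotinib cells at a higher number in larger flasks, whereas the design text names flasks for all, so vessel and plating cannot be told apart from the drug. Each line comes from 1 tumour, and the labels do not state whether a group's 3 arrays stem from different cultures, so p-values measure the spread between these arrays, which may be technical.

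Interferon alpha and beta bind the receptor of IFNAR1 and IFNAR2, whose kinases JAK1 and TYK2 pass the signal on to the transcription factor complex ISGF3. This complex, of which STAT2 and IRF9 are subunits, binds the interferon-stimulated response element (ISRE) near the start of the target genes. The targets encode sensors of foreign RNA, enzymes that degrade or block it, the ubiquitin-like protein ISG15 with its conjugation enzymes, and factors of the pathway itself. Some are also induced by interferon gamma or directly by IRF factors, and many have a basal level in cells to which no interferon was added.

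Signal is the deposited linear intensity of a probe set. Differences are on the scale of log2(signal + 8), which understates changes of low signals, and a call is an adjusted p under 0.05 in limma after Benjamini-Hochberg adjustment over all 13185 genes. The median signal of an array lay between 11.1 and 14.5, and signals under about 13, the median of the table, are called low here. Feedback genes of the ERK pathway, which lies downstream of EGFR, fell in both lines: DUSP6, a phosphatase induced by ERK, fell by 4.15 in PC9 and fell by 1.76 in HCC827 on the log2 scale. SPRY4, another feedback gene, fell by 4.32 in PC9 and fell by 1.51 in HCC827. The 5 epithelial markers (EPCAM, KRT8, KRT18, KRT19 and CDH1) were high on every array, with summed signals from 10590.4 in HCC827 erlotinib to 14439 in PC9 erlotinib. Of 9 measured leukocyte markers, 6 were low on average in every group, among them PTPRC and CD3E, with group means of at most 3.77 and 1.0. The summed leukocyte signal was 115 to 135 in PC9 DMSO, 277 to 297 in PC9 erlotinib, 41.2 to 48.0 in HCC827 DMSO and 51.6 to 63.4 in HCC827 erlotinib. In PC9 NCAM1, also a neural marker, CSF1R and ITGAM rose with erlotinib, and in HCC827 none of the 3 passed. Of 3 endothelial markers, PECAM1 and CDH5 were above the low range in PC9 only, with summed signals of 895 to 988 in PC9 DMSO, 653 to 704 in PC9 erlotinib and at most 16.8 in HCC827, and VWF was low throughout. Of 3 fibroblast markers, LUM rose with erlotinib in both lines, to summed signals of 91.0 to 140.3 in PC9 and 169 to 204 in HCC827 from at most 14.4 in DMSO, while DCN and PDGFRA stayed low. What part these marker signals have in the results was not tested.

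In DMSO the 2 lines stood far apart. All 37 members were lower in PC9 than in HCC827, each by at least 2-fold on the log2(signal + 8) scale, with arrays that did not overlap for any member. The median difference was -3.39 on the log2 scale, against -0.02 over all genes tested. It was -4.14 with 1 and -2.58 with 32 in place of the 8 added to each signal. In RNA of whole cultures, fewer cells with a transcript and less of it per cell cannot be told apart. Over all genes, 39.4% were called lower in PC9 and 36.8% higher, and 78.5% had groups that did not overlap. The mean signal in PC9 was low for 19 of the 37 members and in HCC827 for 0, with medians of the group means of 12.5 and 275.7. Because 10 members were low in both PC9 groups, they passed the filter on low values only through HCC827. The size of their difference rests on PC9 signals that cannot be told from background here. The list was chosen with earlier results of these data known, so these counts describe it and are no independent test.

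**Figure D1:**
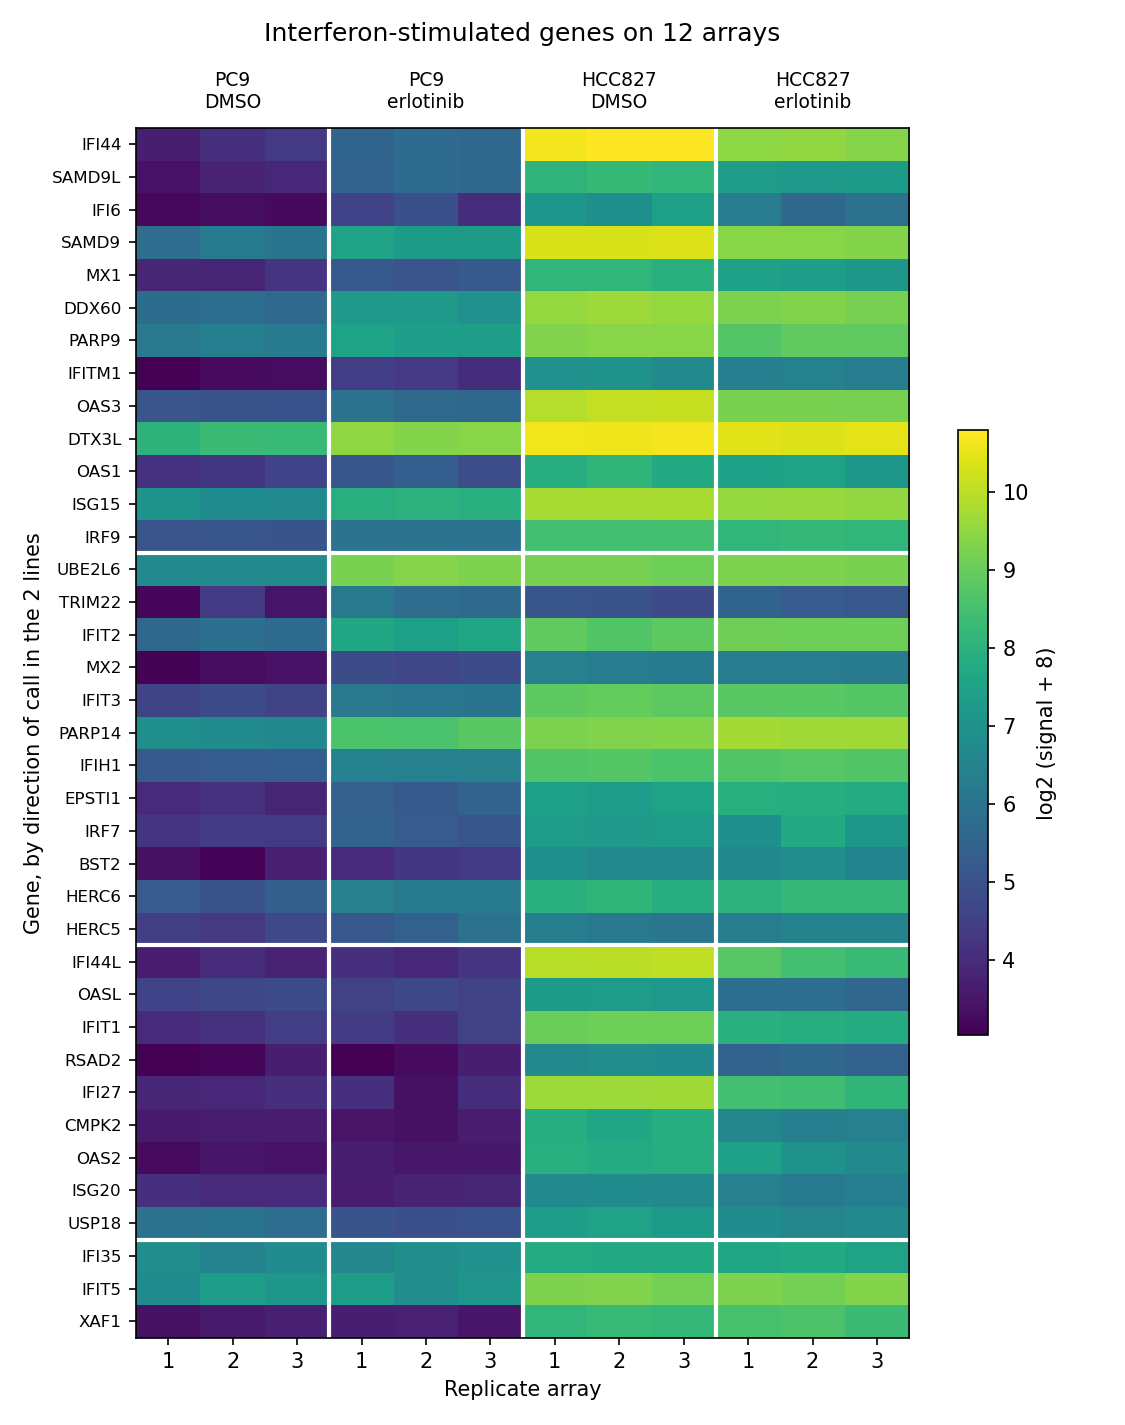
Heat map of log2(signal + 8) for 37 interferon-stimulated genes (rows) on the 12 arrays (columns, 3 per group); rows are grouped, from the top, as called higher in PC9 and lower in HCC827 with erlotinib (13), higher in PC9 and not lower in HCC827 (12), lower in HCC827 and not higher in PC9 (9) and neither (3). Both HCC827 groups are brighter than both PC9 groups in all rows but those of UBE2L6 and TRIM22, and the PC9 erlotinib columns are brighter than the PC9 DMSO columns in the upper 2 blocks.

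Among the 37 members, the largest differences between the untreated lines were those of IFI44 and IFI44L, neighbouring genes of little-known antiviral function. IFI44 gave signals of 5.0, 9.2 and 12.3 on the PC9 arrays and 1605, 1752 and 1754 on the HCC827 arrays, a difference of -6.69 ± 0.12 (SE, adjusted p = 3.71e-17). IFI44L gave 4.5, 8.3 and 5.9 in PC9 against 979, 1008 and 1049 in HCC827, or -6.17 ± 0.13 (SE, adjusted p = 1.64e-16). In both, the PC9 arrays lay under the median of the table and the HCC827 arrays far above it.

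IFI27, a small mitochondrial protein much used as a mark of interferon action, gave 6.5, 6.9 and 9.0 in PC9 and 789, 788 and 804 in HCC827, with a difference of -5.70 ± 0.15 (SE, adjusted p = 4.34e-15). OAS3, which makes the adenylate chains that activate RNase L, gave 25.9, 24.8 and 23.5 against 969.6, 1073 and 1081, or -5.00 ± 0.09 (SE, adjusted p = 2.2e-17). IFIT1, which binds the caps of foreign RNA, gave 7.9, 9.6 and 13.9 against 516, 536 and 527, or -4.87 ± 0.13 (SE, adjusted p = 2.7e-15). XAF1, an antagonist of the apoptosis inhibitor XIAP, gave 2.4, 4.0 and 5.1 against 273, 303 and 285, or -4.64 ± 0.12 (SE, adjusted p = 1.84e-15). For these 4 genes, as for the IFI44 pair, the lowest HCC827 array lay far above the highest PC9 array. At the other end of the range the smallest differences were those of IFI35 (-1.07 ± 0.11 SE), TRIM22 (-1.32 ± 0.23 SE), USP18 (-1.46 ± 0.10 SE) and HERC5 (-1.69 ± 0.16 SE).

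With erlotinib, most calls among the 37 members were rises in PC9 and falls in HCC827, and 13 members had both. In PC9, 25 of 37 rose, 2 fell and 10 did not pass the test, and 19 of the 25 rose by at least 2-fold, as 9.61% of all genes did. The 25 include IFITM1 and BST2 and the 2 include ISG20, all of them low in both PC9 groups. Over all genes, 36.3% were called higher and 28.3% lower in PC9. The members' median change was 1.06, against 0.05 over all genes, and it was 1.24 with 1 and 0.57 with 32 in place of the 8 added to each signal. In PC9, 28 of 37 had groups that did not overlap, against 64.9% of all genes. In HCC827, 22 fell, 3 rose and 12 did not pass, and 8 of the 22 fell by at least 2-fold, as 1.46% of all genes did. Over all genes, 19.5% were called lower and 32.2% higher in HCC827. The members' median change there was -0.33, against 0.07 over all genes, and 29 of 37 had groups that did not overlap, against 62.1%. Centring each array on its median lowered the all-gene median change by 0.15 in PC9 and by 0.07 in HCC827, and the share of higher calls among all calls went from 56.2% to 41.6% in PC9 and from 62.3% to 50.4% in HCC827. Under it 25 members rose in PC9 and 22 fell in HCC827, all of them also called without it.

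Set side by side, 13 members were called higher in PC9 and lower in HCC827, as were 2.3% of all genes. These were MX1, OAS1, OAS3, IFI6, IFI44, IFITM1, ISG15, IRF9, SAMD9, SAMD9L, PARP9, DDX60 and DTX3L. Another 12 were called higher in PC9 and not lower in HCC827: IFIT2, IFIT3, MX2, IFIH1, IRF7, BST2, HERC5, HERC6, EPSTI1, PARP14, TRIM22 and UBE2L6. A further 9 were called lower in HCC827 and not higher in PC9: IFIT1, OAS2, OASL, IFI27, IFI44L, RSAD2, CMPK2, and USP18 and ISG20, which were called lower in both lines. No change in PC9 is read for IFITM1, BST2 or ISG20, whose signals there cannot be told from background. IFIT5, IFI35 and XAF1 passed the test in neither line. In HCC827 the 3' to 5' signal ratio of the actin control, a sign of RNA integrity, was 3.03 ± 0.598 (SD, n = 3) in erlotinib and 2.17 ± 0.0564 (SD, n = 3) in DMSO, and the exact permutation test, two-sided, gave p = 0.1, the smallest that 3 arrays against 3 allow. In PC9 it was 2.22 ± 0.271 (SD, n = 3) in erlotinib and 2.18 ± 0.152 (SD, n = 3) in DMSO (p = 1.0 by the same exact test). With this ratio as a covariate, 15 of the 22 falls in HCC827 were still called, and the count of members that rose in PC9 and fell in HCC827 went from 13 to 8. Over all genes, the share called lower went from 19.5% to 12.1%. The falls not called were those of DDX60 (-0.32 with the covariate, -0.33 without), DTX3L (-0.27 and -0.19), IRF9 (-0.30 and -0.31), ISG15 (-0.14 and -0.22), ISG20 (-0.29 and -0.39), OAS1 (-0.42 and -0.54) and OAS2 (-0.44 and -0.76). Without both HCC827 erlotinib arrays of the highest ratio, which leaves 1 array there that is assumed to vary like the other groups, the counts were again 15 and 8, with IFITM1 in place of IRF9 among the falls not called, and 12.7% of all genes were called lower. The members' median change in HCC827 was -0.30 with the covariate and -0.34 without those arrays, against -0.33 with neither. The part of RNA integrity in the falls was not otherwise tested.

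**Figure D2:**
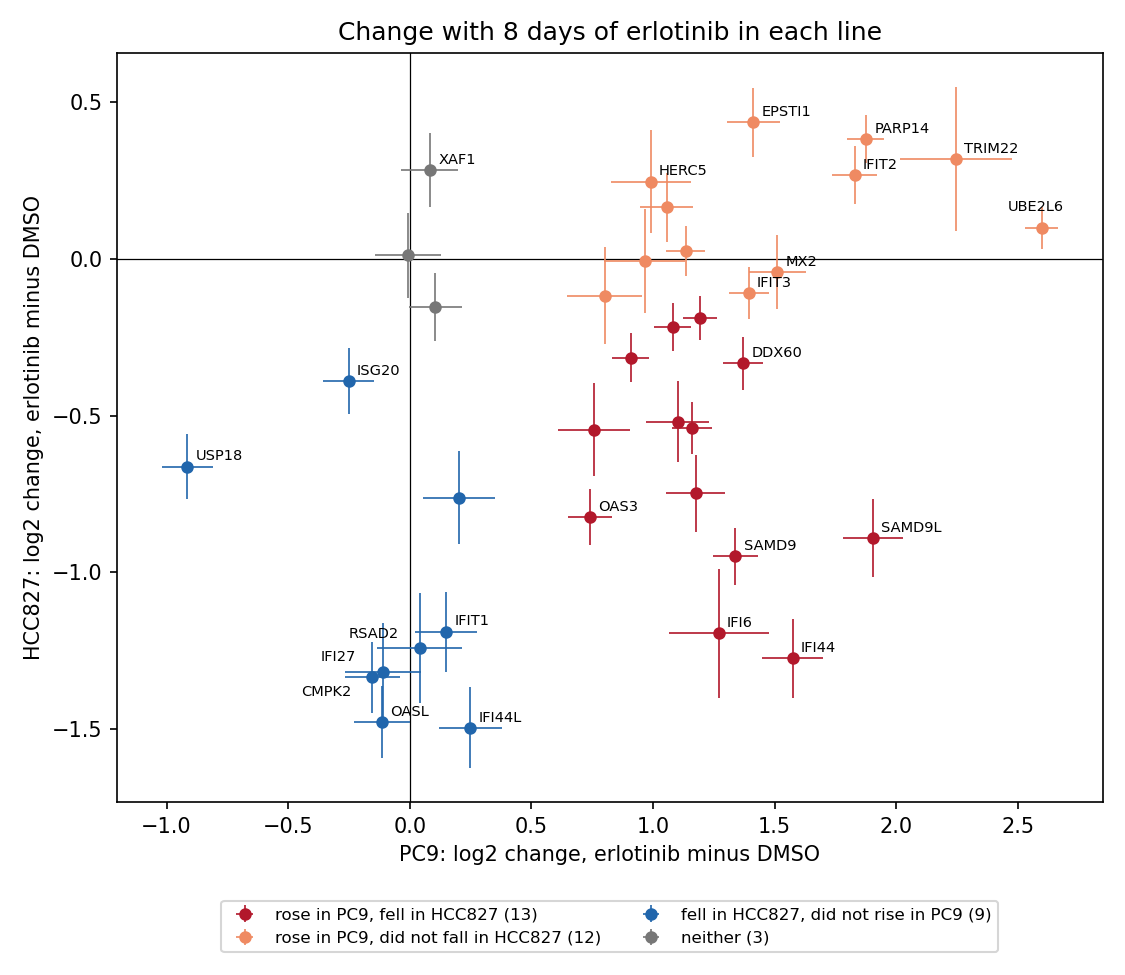
Change with erlotinib (log2 scale, erlotinib minus DMSO) in PC9 on the x axis and in HCC827 on the y axis for 37 interferon-stimulated genes; each point is 1 gene, bars are the standard error of the fit and colours give the direction of the calls. 13 genes lie at the lower right as called higher in PC9 and lower in HCC827, UBE2L6 lies farthest to the right at 2.60, and IFI44L lies lowest at -1.50.

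The test of the difference itself, the PC9 change minus the HCC827 change, called 32 of 37 members higher in PC9 and 0 lower, in limma at the same threshold. The list was followed with the opposite movement of the lines already known, so these counts describe the list and are no independent test. At an unadjusted p under 0.05 the counts were again 32 and 0, and 1 member, USP18, was called lower after quantile normalization. Over all genes, 21.2% were called higher and 23.9% lower. The median difference was 1.34, against -0.02 over all genes, and 26 of the 32 were at least 2-fold, as were 5.78% of all genes. The 5 members that did not pass were IFIT5, IFI35, ISG20, XAF1 and USP18. Among the 32, IFIT1, OAS2, IFI27, IFI44L, IFITM1, RSAD2, BST2 and CMPK2 were low in PC9 under both treatments. A fall in PC9 could not have been seen in these. The 6 largest differences were those of IFI44 (2.85 ± 0.18 SE), SAMD9L (2.79 ± 0.18 SE), UBE2L6 (2.50 ± 0.09 SE), IFI6 (2.46 ± 0.29 SE), SAMD9 (2.29 ± 0.13 SE) and TRIM22 (1.93 ± 0.33 SE). The HCC827 change was -1.27 in IFI44, -0.89 in SAMD9L, -1.19 in IFI6 and -0.95 in SAMD9, all of them called falls, but 0.10 in UBE2L6 and 0.32 in TRIM22, neither called. For the last 2 genes the difference thus came with a called change in PC9 alone. IFI44, SAMD9L, IFI6 and TRIM22 were low on every PC9 DMSO array. The size of their differences therefore depends on the constant added to the signal. The members' median difference was 1.56 with 1 and 0.99 with 32 in place of 8. RSAD2 and IFI27, at low signals in PC9, were not called with 1 in place of 8 added to the signal, at differences of 1.56 (adjusted p = 0.102) and 1.05 (adjusted p = 0.0555). HERC5 was not called with the actin ratio as a covariate, at 0.72 (adjusted p = 0.0822) against 0.74 without it. By its second probe set the IFIT2 difference was 0.42 (adjusted p = 0.103), against 1.56 by the brightest.

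Promoter windows are shown because ISGF3 binds its target genes at the ISRE, near their start. RefSeq windows of 300 bases (250 before and 50 after the start, build GRCh38.p14) were found for 30 of the 37 tested members. The ISRE core was searched as GAAANNGAAA and the core of the gamma-activated site (GAS) as TTCNNNGAA, on both strands, and the 2 cores can overlap. The ISRE core was in a window of 22 of 30 members (73.3%), against 3.57% of 35116 windows and 4.38% of 27305 genes. The GAS core was in a window of 10 of 30 members (33.3%), against 7.66% of windows and 9.38% of genes. By direction, the ISRE core was in 10 of 13 members that rose in PC9 and fell in HCC827, 6 of 8 with a window that rose in PC9 without falling in HCC827, 5 of 6 that fell in HCC827 without rising in PC9, and 1 of 3 that did neither. A match is a description of the sequence, not a measured site. The windows of the 4 members with the largest difference between the lines are shown, 5' to 3' on the strand of the gene, with ISRE core matches in capitals; IFI44 and UBE2L6 have 2 windows each, and the one at the outer start is given.
IFI44 (chr1:78649539-78649838, plus strand): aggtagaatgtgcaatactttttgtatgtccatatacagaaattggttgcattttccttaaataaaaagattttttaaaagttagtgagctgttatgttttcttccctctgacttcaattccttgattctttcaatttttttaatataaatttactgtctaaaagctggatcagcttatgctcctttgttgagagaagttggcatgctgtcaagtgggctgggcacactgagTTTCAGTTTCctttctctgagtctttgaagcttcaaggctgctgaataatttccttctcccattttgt
SAMD9L (chr7:93148336-93148635, minus strand): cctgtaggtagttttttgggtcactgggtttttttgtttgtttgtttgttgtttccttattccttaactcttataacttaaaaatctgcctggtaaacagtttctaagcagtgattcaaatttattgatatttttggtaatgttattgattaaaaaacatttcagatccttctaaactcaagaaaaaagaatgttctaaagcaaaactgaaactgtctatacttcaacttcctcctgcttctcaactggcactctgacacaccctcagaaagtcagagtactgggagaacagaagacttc
UBE2L6 (chr11:57567886-57568185, minus strand): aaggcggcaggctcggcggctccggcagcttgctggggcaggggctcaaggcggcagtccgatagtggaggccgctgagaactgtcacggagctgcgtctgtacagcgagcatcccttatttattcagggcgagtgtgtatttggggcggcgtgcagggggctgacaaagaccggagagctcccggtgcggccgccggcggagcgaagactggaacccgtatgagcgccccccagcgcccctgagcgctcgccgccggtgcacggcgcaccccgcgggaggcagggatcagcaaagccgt
IFI6 (chr1:27672143-27672442, minus strand): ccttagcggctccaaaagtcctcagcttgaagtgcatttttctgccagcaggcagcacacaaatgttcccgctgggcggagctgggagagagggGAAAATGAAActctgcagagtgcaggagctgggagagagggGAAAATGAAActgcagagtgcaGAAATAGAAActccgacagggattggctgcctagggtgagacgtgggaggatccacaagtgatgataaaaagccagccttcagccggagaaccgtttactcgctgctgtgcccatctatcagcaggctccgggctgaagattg
The IFI44 window holds 1 match and the IFI6 window 3, while the SAMD9L and UBE2L6 windows hold 0. A window without these letters says nothing of whether ISGF3 binds the gene.

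Another window, chosen after the values were seen, belongs to DTX3L, which with PARP9 makes a ubiquitin ligase that acts on histones and viral proteins. The 2 genes lie head to head, and their windows overlap on chromosome 3 and hold the same ISRE core match on opposite strands, at 122564332 to 122564341.
DTX3L (chr3:122564088-122564387, plus strand): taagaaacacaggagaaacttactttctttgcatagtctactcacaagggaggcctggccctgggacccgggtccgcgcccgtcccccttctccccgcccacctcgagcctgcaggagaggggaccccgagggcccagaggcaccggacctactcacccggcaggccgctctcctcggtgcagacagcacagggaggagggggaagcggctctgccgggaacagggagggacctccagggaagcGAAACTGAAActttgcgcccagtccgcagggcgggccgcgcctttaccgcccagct
PARP9 gave 64.4, 74.7 and 67.0 in PC9 DMSO, 175, 159.5 and 156 in PC9 erlotinib, 624, 669.6 and 668 in HCC827 DMSO and 411, 466 and 468 in HCC827 erlotinib. It rose by 1.16 ± 0.08 (SE, adjusted p = 3.44e-09) in PC9 and changed by -0.54 ± 0.08 (SE, adjusted p = 4.59e-05) in HCC827. DTX3L gave 256, 311 and 301 in PC9 DMSO, 707, 637 and 668 in PC9 erlotinib, 1563, 1540.2 and 1579.7 in HCC827 DMSO and 1379.8, 1328 and 1399.8 in HCC827 erlotinib. It had changes of 1.19 ± 0.07 (SE, adjusted p = 3e-10) in PC9 and -0.19 ± 0.07 (SE, adjusted p = 0.031) in HCC827. The groups of each line did not overlap for either gene. The DTX3L fall was the smallest called among the members in HCC827: it did not pass without any one of 5 of the 6 HCC827 arrays (all but erlotinib replicate 3), at changes of -0.17 to -0.20, nor with the actin ratio as a covariate, at -0.27. The adjusted p ran from 0.0562 to 0.213 over all settings in which it did not pass.

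PARP14, an ADP-ribosyltransferase encoded beside them, was the member of this group that rose in both lines. It gave 109.8, 102 and 93.2 in PC9 DMSO and 377, 372 and 434 in PC9 erlotinib, and rose by 1.87 ± 0.08 (SE, adjusted p = 3.93e-12). Its HCC827 signals were 608, 633 and 636 in DMSO and 848, 803 and 803 in erlotinib, a rise of 0.38 ± 0.08 (SE, adjusted p = 0.000554). All erlotinib arrays lay above all DMSO arrays of their line. With the mean of all its probe sets the HCC827 rise was 0.18 and did not pass (adjusted p = 0.119).

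Of the factors that carry the signal to DNA, IRF9 is the DNA-binding subunit of ISGF3 and IRF7 drives the interferon alpha genes. IRF9 gave 26.0, 26.3 and 25.2 in PC9 DMSO and 55.2, 55.8 and 55.4 in PC9 erlotinib, a rise of 0.91 ± 0.08 (SE, adjusted p = 3.16e-08). HCC827 cells gave 348, 345 and 349.7 in DMSO and 274, 288 and 272 in erlotinib, a fall with a change of -0.31 ± 0.08 (SE, adjusted p = 0.0028). The arrays of each group lay close together and no groups overlapped. IRF7 gave 10.2, 12.9 and 12.6 in DMSO and 36.0, 30.1 and 26.8 in erlotinib in PC9, a rise of 0.97 ± 0.17 (SE, adjusted p = 8.22e-05). In HCC827 its erlotinib arrays gave 113, 209.5 and 132 against 149, 140.3 and 151 in DMSO, with 1 array high and a change of -0.01 ± 0.17 (SE, adjusted p = 0.982).

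Both sensors of the list rose in PC9. IFIH1, known as MDA5, detects long double-stranded RNA, and gave 29.8, 31.3 and 33.2 in PC9 DMSO and 81.6, 76.2 and 77.8 in PC9 erlotinib, a rise of 1.13 ± 0.08 (SE, adjusted p = 3.09e-09). In HCC827 its groups overlapped, at 406, 423 and 380.0 in DMSO and 402, 425 and 402 in erlotinib, with a change of 0.02 ± 0.08 (SE, adjusted p = 0.814). DDX60, a helicase said to aid RNA sensing, gave 46.6, 48.9 and 43.9 in DMSO and 140.5, 143 and 116 in erlotinib in PC9, a rise of 1.37 ± 0.08 (SE, adjusted p = 6.12e-10). Its HCC827 arrays gave 744, 790.0 and 743 in DMSO and 597, 625 and 581 in erlotinib, a change of -0.33 ± 0.08 (SE, adjusted p = 0.00343).

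The ISG15 system held the largest rise and the largest fall among the members in PC9. UBE2L6, the enzyme that carries ISG15 to its ligase, gave 97.0, 94.0 and 98.7 in PC9 DMSO and 596, 659.9 and 619 in PC9 erlotinib. It rose by 2.60 ± 0.07 (SE, adjusted p = 1.98e-14). In HCC827 it gave 576, 574 and 528 in DMSO and 599, 612 and 587 in erlotinib, with a change of 0.10 ± 0.07 (SE, adjusted p = 0.227). Under erlotinib the difference between the lines was 0.06 ± 0.07 (SE, adjusted p = 0.431), with overlapping arrays.

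USP18, the protease that removes ISG15 from proteins and restrains the receptor at IFNAR2, moved the other way. It gave 52.4, 56.2 and 47.8 in PC9 DMSO and 25.3, 22.3 and 24.0 in PC9 erlotinib, with a change of -0.91 ± 0.10 (SE, adjusted p = 1.04e-06). Its HCC827 signals were 155, 173 and 144 in DMSO and lay between 86.1 and 103 in the 3 erlotinib arrays, with a change of -0.66 ± 0.10 (SE, adjusted p = 6.26e-05). It thus fell in both lines with no overlap, and the difference between the 2 falls did not pass (-0.25 ± 0.15 SE, adjusted p = 0.178).

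ISG15 itself gave 123, 105 and 99.5 in PC9 DMSO and 233, 251 and 232 in PC9 erlotinib, a rise of 1.08 ± 0.08 (SE, adjusted p = 3.11e-09). HCC827 cells gave 856, 856 and 881 in DMSO and 746, 757 and 724 in erlotinib, a small fall with a change of -0.22 ± 0.08 (SE, adjusted p = 0.0246). That fall was lost without any one of 4 HCC827 arrays (the 3 in DMSO and erlotinib replicate 3), with adjusted p from 0.0539 to 0.0783, and with the actin ratio as a covariate (adjusted p = 0.394). HERC5, the main ligase of ISG15, and its relative HERC6 rose in PC9 by 0.99 ± 0.16 (SE) and 1.06 ± 0.11 (SE). Their HCC827 changes were 0.25 ± 0.16 (SE) and 0.17 ± 0.11 (SE), neither called, with overlapping groups. Of the 5 genes of the system, 4 rose and 1 fell in PC9, and 2 fell and 3 did not pass in HCC827.

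The IFIT family binds foreign RNA and blocks its translation, and its 4 members did not all move alike by their calls. IFIT2 gave 40.9, 50.6 and 45.6 in PC9 DMSO and 195, 164 and 189.9 in PC9 erlotinib, a rise of 1.83 ± 0.09 (SE, adjusted p = 5.7e-11). In HCC827 it gave 471, 399 and 454 in DMSO and 542, 528 and 526 in erlotinib, a smaller rise of 0.27 ± 0.09 (SE, adjusted p = 0.0233), which did not pass with each array centred on its median (0.19, adjusted p = 0.0959), by its second probe set (0.24, adjusted p = 0.174) or with the actin ratio as a covariate (0.22, adjusted p = 0.272). Nor did it pass without both arrays of the highest ratio (0.29, adjusted p = 0.131) or without any one of 3 HCC827 arrays: DMSO replicate 2 (adjusted p = 0.125), erlotinib replicate 1 (0.0615) and erlotinib replicate 2 (0.0506). IFIT3, which binds IFIT1 and IFIT2, rose in PC9 by 1.39 ± 0.08 (SE, adjusted p = 4.22e-10) from 16.9, 20.2 and 16.8 to 62.8, 59.4 and 58.1, and changed by -0.11 ± 0.08 (SE, adjusted p = 0.292) in HCC827.

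IFIT1 stayed low in PC9, at 7.9, 9.6 and 13.9 in DMSO and 13.2, 9.0 and 15.2 in erlotinib, with overlapping groups and a change of 0.15 ± 0.13 (SE, adjusted p = 0.319). In HCC827 it went from 516, 536 and 527 to 239, 224 and 217, a fall with a change of -1.19 ± 0.13 (SE, adjusted p = 1.04e-06). In PC9, IFIT5 was at 101, 158 and 132 without the drug and 154, 106 and 127 with it. In HCC827 its signals were 611, 629 and 565 without and 612, 563 and 647 with erlotinib, with overlap in both lines. Its changes were -0.01 ± 0.14 (SE) in PC9 and 0.01 ± 0.14 (SE) in HCC827.

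**Figure D3:**
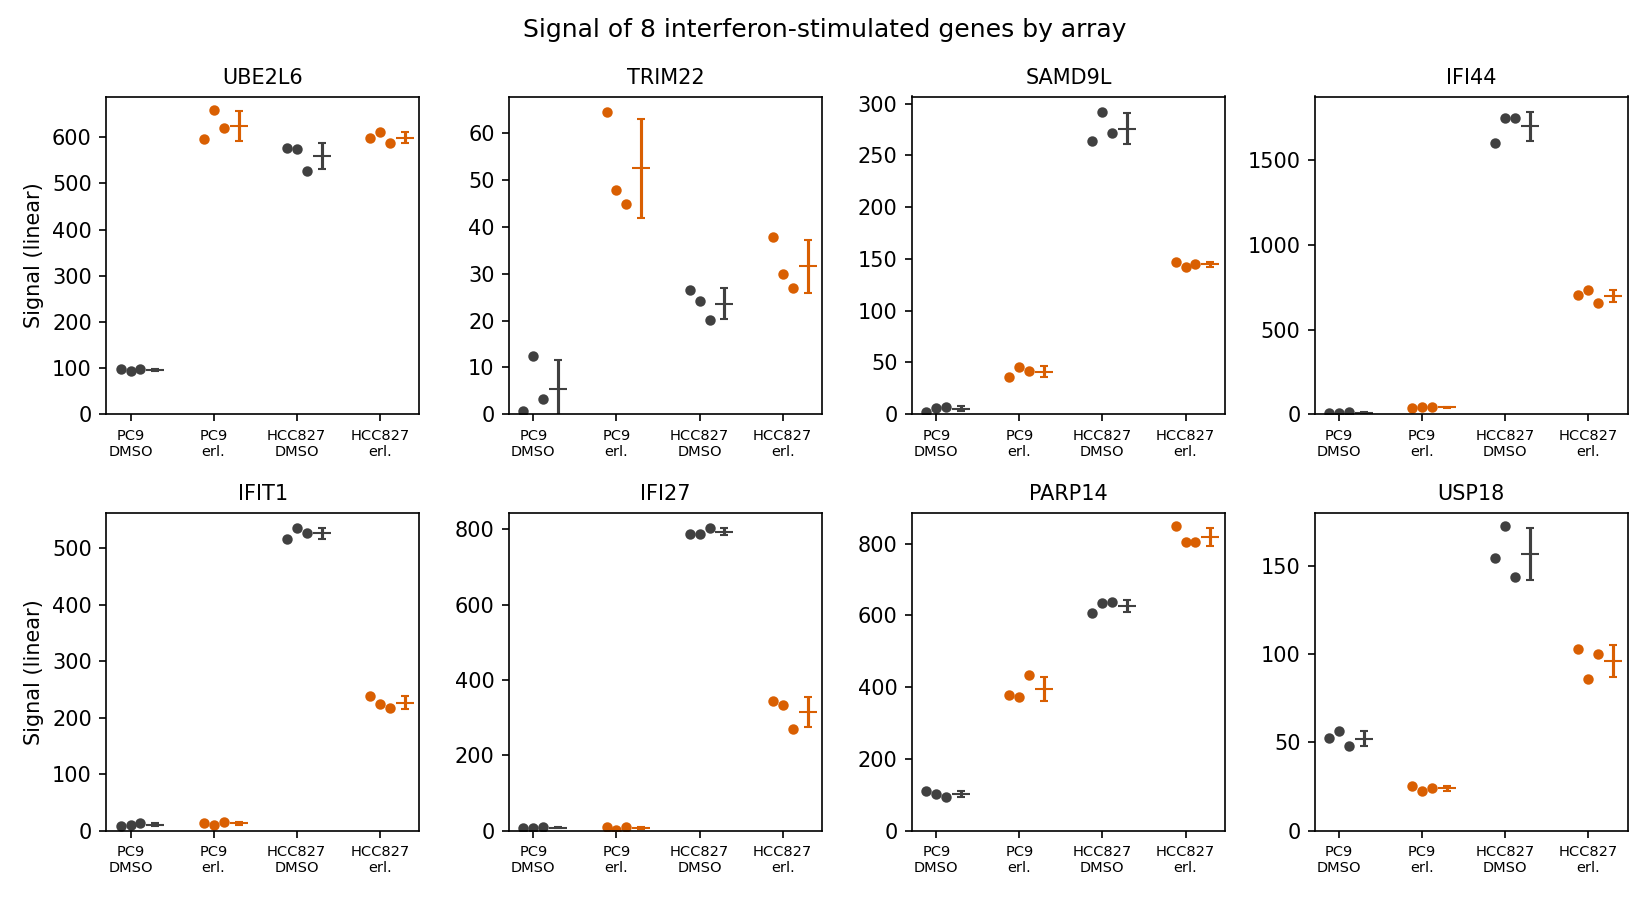
Linear signal of 8 interferon-stimulated genes on each of the 12 arrays, by line and treatment; points are single arrays, the dash with its bar is the mean ± SD of 3 arrays, and each panel has its own y axis from 0. In PC9 erlotinib UBE2L6 overlaps its HCC827 arrays and TRIM22 lies above its own, IFIT1 and IFI27 stay low in both PC9 groups and fall in HCC827, PARP14 rises in both lines and USP18 falls in both.

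The MX proteins are GTPases that trap viral capsids. MX1 gave 6.7, 6.2 and 10.7 in PC9 DMSO and 28.0, 26.1 and 28.6 in PC9 erlotinib, a rise of 1.18 ± 0.12 (SE, adjusted p = 3.29e-07). Its HCC827 signals were 274, 275 and 238 in DMSO and 171, 155 and 134 in erlotinib, a fall with a change of -0.75 ± 0.12 (SE, adjusted p = 8.43e-05). MX2 rose in PC9 by 1.51 ± 0.12 (SE, adjusted p = 1.12e-08), from 0.4, 1.8 and 2.7 to 20.6, 17.6 and 19.8, and in HCC827 its groups overlapped, with a change of -0.04 ± 0.12 (SE, adjusted p = 0.792).

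All 4 members of the OAS family fell in HCC827, and 2 of them rose in PC9. OAS3 rose in PC9 to 54.0, 44.2 and 42.5, a change of 0.74 ± 0.09 (SE, adjusted p = 1.75e-06), and in HCC827 it fell to 594, 587 and 572, a change of -0.82 ± 0.09 (SE, adjusted p = 1.08e-06). OAS1 gave 9.9, 11.5 and 16.1 in DMSO and 26.2, 32.9 and 21.0 in erlotinib in PC9, a rise of 0.76 ± 0.15 (SE, adjusted p = 0.000304), and changed by -0.54 ± 0.15 (SE, adjusted p = 0.00595) in HCC827. OAS2 was low on all 6 PC9 arrays, from 1.6 to 5.0, and changed by -0.76 ± 0.15 (SE, adjusted p = 0.000437) in HCC827. The HCC827 falls of OAS1 and OAS2 did not pass with the actin ratio as a covariate (adjusted p = 0.185 and 0.117).

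OASL, a relative without the synthetase activity that aids the sensor RIG-I, had the largest fall of the family. It gave 144, 151 and 134 in HCC827 DMSO and 50.7, 49.0 and 39.8 in HCC827 erlotinib, a change of -1.48 ± 0.11 (SE, adjusted p = 2.35e-08). In PC9 it gave 16.0, 18.3 and 20.2 in DMSO and 15.1, 18.3 and 15.1 in erlotinib, with overlap and a change of -0.11 ± 0.11 (SE, adjusted p = 0.397). By its other probe set, and after quantile normalization, it fell in PC9 as well, on the other probe set with a change of -0.48 (adjusted p = 0.00902).

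SAMD9 and SAMD9L are neighbouring genes whose proteins restrict poxviruses, and both were among the members that rose in PC9 and fell in HCC827. SAMD9L gave 2.6, 6.0 and 7.2 in PC9 DMSO and 36.2, 46.0 and 41.5 in PC9 erlotinib, a rise of 1.90 ± 0.12 (SE, adjusted p = 1.37e-09). HCC827 cells gave 264, 292 and 271 in DMSO and 147, 142 and 145 in erlotinib, a change of -0.89 ± 0.12 (SE, adjusted p = 1.87e-05). In PC9, SAMD9 gave 48.3, 64.7 and 56.5 without the drug and 173, 145 and 146 with it. In HCC827 its signals were 1264, 1274 and 1313 without and 668, 667 and 648 with erlotinib. Its changes were 1.34 ± 0.09 (SE, adjusted p = 2.18e-09) and -0.95 ± 0.09 (SE, adjusted p = 2.96e-07), and no groups overlapped within a line.

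Of the IFI44 pair, only IFI44 was called in PC9, though the difference between the 2 genes was not tested. IFI44 went from 5.0, 9.2 and 12.3 to 38.1, 45.1 and 40.9 in PC9, a rise of 1.57 ± 0.12 (SE, adjusted p = 1.37e-08), while IFI44L gave 9.0, 7.0 and 10.6 in PC9 erlotinib, overlapping its DMSO arrays, with a change of 0.25 ± 0.13 (SE, adjusted p = 0.104). That change was called without PC9 DMSO replicate 2 (0.35, adjusted p = 0.0319). In HCC827 both fell by more than 2-fold. IFI44 went to 706, 734 and 659, a change of -1.27 ± 0.12 (SE, adjusted p = 3.62e-07), and IFI44L to 425, 346 and 300.3, a change of -1.50 ± 0.13 (SE, adjusted p = 8.42e-08).

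RSAD2, or viperin, makes a chain-terminating nucleotide, and CMPK2, its neighbour, is a nucleotide kinase. Both were low on all PC9 arrays, RSAD2 at 0.2, 0.9 and 4.9 in DMSO and 0.3, 1.5 and 5.0 in erlotinib and CMPK2 at 4.1, 4.7 and 4.5 in DMSO and 2.9, 2.4 and 4.3 in erlotinib. In HCC827 RSAD2 went from 95.6, 109 and 101 to 37.3, 41.7 and 36.5, a change of -1.24 ± 0.18 (SE, adjusted p = 2.07e-05). CMPK2 went from 226, 192 and 223 to 88.9, 73.5 and 77.4, a change of -1.33 ± 0.11 (SE, adjusted p = 7.02e-08). Neither pair of HCC827 groups overlapped.

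Of the membrane restriction factors, IFITM1 hinders the fusion of viruses and BST2, or tetherin, holds budding virus at the cell. IFITM1 rose in PC9 by 1.10 ± 0.13 (SE, adjusted p = 1.51e-06), from 0.2, 1.5 and 1.7 to 14.2, 12.1 and 8.7, and changed by -0.52 ± 0.13 (SE, adjusted p = 0.00321) in HCC827, from 117, 119 and 96.4 to 75.0, 79.0 and 69.8. BST2 rose in PC9 by 0.80 ± 0.16 (SE, adjusted p = 0.000264), from 2.5, 0.6 and 5.1 to 7.5, 11.7 and 12.5, and its HCC827 groups overlapped, with a change of -0.12 ± 0.16 (SE). Both were low by their means in both PC9 groups and passed the filter only through HCC827. Their PC9 signals cannot be told from background, so no change of expression is read from these PC9 calls. With 1 in place of 8 added to the signal, the IFITM1 fall in HCC827 did not pass (-0.56, adjusted p = 0.0963).

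The other members had no common role. TRIM22, a tripartite motif protein that restricts viral transcription, gave 0.8, 12.5 and 3.2 in PC9 DMSO and 64.6, 47.9 and 45.0 in PC9 erlotinib, a rise of 2.24 ± 0.23 (SE, adjusted p = 2.95e-07). In HCC827 it gave 26.6, 24.2 and 20.1 in DMSO and 37.8, 30.0 and 26.9 in erlotinib, a change of 0.32 ± 0.23 (SE, adjusted p = 0.262). It was the only member called higher in PC9 than in HCC827 under erlotinib, by 0.61 ± 0.23 (SE, adjusted p = 0.0244). That call was lost with 1 in place of 8 added to the signal (adjusted p = 0.189), with the actin ratio as a covariate (0.221) and without any one of 3 erlotinib arrays: PC9 replicate 1 (0.47, adjusted p = 0.109), HCC827 replicate 2 (0.58, adjusted p = 0.0589) and HCC827 replicate 3 (0.52, adjusted p = 0.0871).

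IFI6, an endoplasmic reticulum protein that hinders flavivirus replication, gave 1.2, 2.1 and 1.3 in PC9 DMSO and 16.3, 22.2 and 8.5 in PC9 erlotinib, a rise of 1.27 ± 0.21 (SE, adjusted p = 4.64e-05). Its HCC827 arrays gave 130.4, 110.1 and 167 in DMSO and 70.9, 41.4 and 53.3 in erlotinib, a change of -1.19 ± 0.21 (SE, adjusted p = 0.000145). IFI27 stayed low in PC9 erlotinib at 8.8, 2.4 and 8.7, with a change of -0.11 ± 0.15 (SE, adjusted p = 0.549), and fell in HCC827 to 344, 333 and 269, a change of -1.32 ± 0.15 (SE, adjusted p = 2.9e-06). EPSTI1, first described in epithelial cells beside stroma, rose in both lines, by 1.41 ± 0.11 (SE, adjusted p = 1.02e-08) in PC9 and 0.44 ± 0.11 (SE, adjusted p = 0.00325) in HCC827. Its arrays went from 7.5, 9.6 and 6.2 to 34.4, 29.9 and 37.5 and from 166, 149 and 176 to 233, 223 and 217. By its second probe set the change in HCC827 was 0.03 (adjusted p = 0.846), so the HCC827 rise was seen by the brightest probe set alone.

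ISG20, an exonuclease that degrades RNA, was called lower in both lines. It was low in PC9, at 8.8, 7.5 and 7.6 in DMSO and 4.3, 5.8 and 6.2 in erlotinib, and its change of -0.25 ± 0.11 (SE, adjusted p = 0.0475) there did not pass under 7 of the other settings or without any one of 11 of the 12 arrays (all but PC9 erlotinib replicate 3), with adjusted p from 0.0519 to 0.184. In HCC827 it went from 96.0, 101 and 100.1 to 77.3, 68.5 and 75.8, a change of -0.39 ± 0.11 (SE, adjusted p = 0.0057). XAF1 was low on all PC9 arrays, with a change of 0.08 ± 0.12 (SE, adjusted p = 0.56), and its HCC827 arrays went from 273, 303 and 285 to 362, 387 and 308, a change of 0.28 ± 0.12 (SE, adjusted p = 0.0541) that was called without any one of 4 arrays (PC9 DMSO replicates 1 and 3, PC9 erlotinib replicate 3 and HCC827 erlotinib replicate 3), with adjusted p down to 0.0251. The XAF1 change in HCC827 was also called under 4 other settings, among them the constant 32 (adjusted p = 0.0113) and the line fitted alone (adjusted p = 0.0128). By its second probe set it was -0.10 (adjusted p = 0.554). IFI35, a partner of NMI, changed by 0.11 ± 0.11 (SE, adjusted p = 0.41) in PC9 and -0.15 ± 0.11 (SE, adjusted p = 0.251) in HCC827, with overlap in both.

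Under erlotinib the lines stood closer than in DMSO. In erlotinib 35 of 37 members were lower in PC9 than in HCC827, TRIM22 was higher and UBE2L6 did not pass. Over all genes, 40.1% were called lower and 36.3% higher. The median difference was -2.11, against -3.39 in DMSO, and the difference exceeded 8-fold on the log2(signal + 8) scale for 24 members in DMSO and for 7 in erlotinib. It was smaller with erlotinib for 34 of 37 members and larger for IFIT5, USP18 and XAF1. These counts were made with the constant 8 and the brightest probe set alone. With 1 in place of 8 the medians were -2.24 in erlotinib and -4.14 in DMSO, and with 32 they were -1.57 and -2.58. Over the 15 members with a second probe set they were -2.09 and -2.38 by it, and -2.27 and -3.49 by the brightest. The shares of all genes with a smaller gap, or with one over 8-fold, were not computed. Since all 37 members were lower in PC9 in DMSO, a fall in HCC827 alone narrows the gap. The step from the DMSO gap to the erlotinib gap is the same quantity as the difference between the lines' changes given above, and all of these comparisons share arrays. The largest gaps left were those of XAF1 (-4.85 ± 0.12 SE), IFI27 (-4.49 ± 0.15 SE), IFI44L (-4.43 ± 0.13 SE), IFI44 (-3.84 ± 0.12 SE), IFIT1 (-3.53 ± 0.13 SE) and OAS2 (-3.49 ± 0.15 SE).

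**Figure D4:**
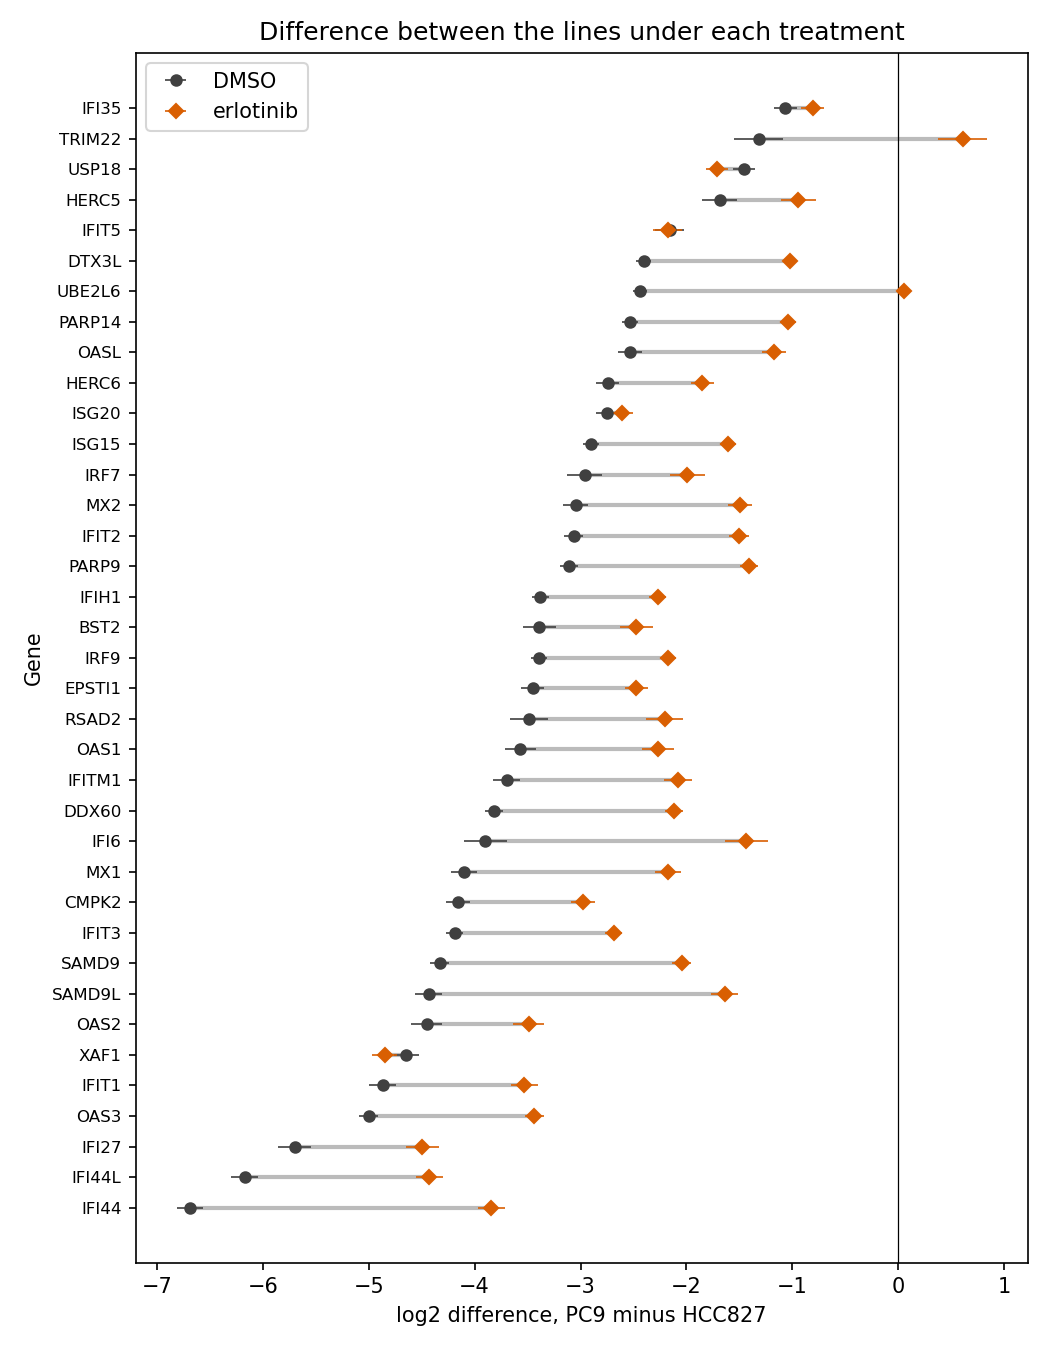
Difference between the lines (PC9 minus HCC827, log2 scale) for each of 37 interferon-stimulated genes in DMSO (circles) and in erlotinib (diamonds), with the standard error of the fit; a grey line joins the 2 values of a gene. In DMSO all circles lie left of 0, with IFI44 lowest at -6.69, and in erlotinib UBE2L6 lies at 0.06 and TRIM22 at 0.61.

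A set of 10 members was low in PC9 under both treatments: IFIT1, OAS2, IFI27, IFI44L, IFITM1, ISG20, RSAD2, XAF1, BST2 and CMPK2, with single PC9 arrays between 0.2 and 15.2. Of these, 8 fell in HCC827, and 2 (IFITM1 and BST2) were called higher in PC9. The values carry no detection calls, so signals in this range cannot be told from background here. No change in PC9 is read from them, though their calls are part of the counts given above.

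The genes upstream and beside the members were measured too. Of 10 listed interferons, 9 had a probe set and 8 of these were low in every group, with no single array above 9.4. That array was one of IFNB1, the gene of interferon beta, which gave 7.0, 9.4 and 6.8 in HCC827 erlotinib against 1.3, 1.0 and 0.9 in HCC827 DMSO, 0.1, 1.8 and 0.1 in PC9 DMSO and 0.1, 0.1 and 0.4 in PC9 erlotinib. It did not pass the filter on low values and was not tested. IFNE, the epithelial interferon epsilon, was tested through its HCC827 signals of 20.5, 24.8 and 22.6 in DMSO and 21.2, 21.8 and 16.2 in erlotinib. Its PC9 signals of 0.8, 4.0 and 1.8 in DMSO and 5.6, 8.6 and 5.9 in erlotinib were all under the filter of 13, in the range that cannot be told from background here, so no change in PC9 is read from them.

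Receptor and signalling genes rose in PC9 for 6 of 9 tested members and fell for 0, with a median of 0.67, and in HCC827 for 4 of 9 and 0, or 8 of 9 and 0 with the arrays of the line fitted alone. The largest rise in either line was that of IFNGR1, the interferon gamma receptor chain, at 1.34 ± 0.07 (SE, adjusted p = 8.35e-11) in PC9 and 0.74 ± 0.07 (SE, adjusted p = 2.17e-07) in HCC827. JAK1 rose by 1.01 ± 0.06 (SE, adjusted p = 5.77e-10) in PC9 and 0.26 ± 0.06 (SE, adjusted p = 0.00237) in HCC827, and TYK2 rose by 0.88 ± 0.09 (SE, adjusted p = 2.1e-07) in PC9. IFNAR2 rose in both lines, by 0.73 ± 0.08 (SE) in PC9 and 0.53 ± 0.08 (SE) in HCC827, and IFNAR1 rose in PC9 by 0.66 ± 0.08 (SE). None of the 9 was called lower in HCC827.

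Of 11 tested genes of nucleic acid sensing, 6 rose and 1 fell in PC9, and 3 rose and 1 fell in HCC827, where 1 rose with each array centred on its median or without HCC827 DMSO replicate 1, and 0 to 3 fell over all settings. In PC9, 36.3% of all genes rose and 28.3% fell, and in HCC827 32.2% rose and 19.5% fell, which are the shares to set beside each of these list counts. TLR3, the endosomal sensor of double-stranded RNA, rose by 2.43 ± 0.12 (SE, adjusted p = 3.64e-11) in PC9 and 0.72 ± 0.12 (SE, adjusted p = 9.18e-05) in HCC827. STING1, the adaptor of DNA sensing, rose in PC9 by 1.36 ± 0.10 (SE, adjusted p = 6.26e-09), and CGAS, the enzyme upstream of it, changed by -0.60 ± 0.15 (SE, adjusted p = 0.00233). IKBKE, a kinase that activates IRF3, rose in PC9 by 0.83 ± 0.15 (SE, adjusted p = 0.000185). IFI16, a DNA sensor that interferon also induces, was low in PC9 (0.2, 9.4 and 5.5 in DMSO, 4.5, 5.2 and 6.7 in erlotinib) and bright in HCC827 (1291, 1414 and 1282 in DMSO and 1202, 1187 and 1214 in erlotinib), and passed the test in neither line; it is named here after its values were seen.

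Negative regulators showed no common direction, with 3 up and 2 down of 8 in PC9 and 2 up and 1 down in HCC827. Over the settings tried, 1 to 3 were down and, in 7 of them, only 1 was up in HCC827, among them the fit without HCC827 erlotinib replicate 3. SOCS3, a feedback inhibitor of JAK kinases, went from 412, 416 and 440.4 to 118, 103 and 137 in PC9, a change of -1.76 ± 0.11 (SE, adjusted p = 8.24e-10). CISH, a target of STAT5 signalling, rose by 0.63 ± 0.12 (SE, adjusted p = 0.000174) in PC9 and changed by -1.22 ± 0.12 (SE, adjusted p = 2.76e-07) in HCC827. PTPN6 rose in both lines, by 0.89 ± 0.12 (SE) and 0.71 ± 0.12 (SE), and PIAS1 rose in PC9 by 0.86 ± 0.08 (SE).

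Among 24 tested interferon-inducible genes outside the member list, 16 rose and 5 fell in PC9, with a median of 0.62, and 5 rose and 6 fell in HCC827, with a median of -0.04. In HCC827, 3 rose with the actin ratio as a covariate, without both arrays of the highest ratio and without HCC827 erlotinib replicate 1. SHFL, a factor that blocks ribosomal frameshifting, rose by 2.14 ± 0.09 (SE, adjusted p = 6.71e-12) in PC9 and 0.94 ± 0.09 (SE, adjusted p = 3.3e-07) in HCC827. APOL1, an apolipoprotein that kills trypanosomes, rose in PC9 by 2.04 ± 0.14 (SE, adjusted p = 2.65e-09), as did IFITM2 by 1.74 ± 0.12 (SE, adjusted p = 3.15e-09) and IFITM3 by 1.64 ± 0.08 (SE, adjusted p = 3.75e-11). None of these last 3 passed in HCC827, where their changes were -0.04 ± 0.14 (SE), 0.12 ± 0.12 (SE) and 0.01 ± 0.08 (SE).

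IRF1 and the guanylate-binding proteins, which answer most strongly to interferon gamma, rose in PC9 for 4 of 4 tested genes and in HCC827 for 3 of 4. GBP1 went from 2.8, 4.7 and 2.5 to 365, 351 and 389.5 in PC9, a rise of 5.06 ± 0.09 (SE, adjusted p = 6.45e-16), and in HCC827 from 417, 426 and 414 to 677, 628 and 684, a rise of 0.65 ± 0.09 (SE, adjusted p = 1.05e-05). GBP2 rose by 3.70 ± 0.09 (SE, adjusted p = 8.4e-15) in PC9 and 1.73 ± 0.09 (SE, adjusted p = 1.4e-10) in HCC827. IRF1 rose by 1.75 ± 0.09 (SE) and 0.33 ± 0.09 (SE), and GBP3 rose in PC9 by 1.81 ± 0.07 (SE) with a change of -0.09 ± 0.07 (SE) in HCC827. The PC9 rise of GBP1 was larger than that of any of the 37 members.

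Further probe sets could be read for 15 members, 18 in all. Of 12 whose gene was called in PC9 by the brightest probe set, 11 were called the same way and 1, of ISG20, did not pass. Of 13 whose gene was called in HCC827, 9 were called the same way and 4, of EPSTI1, IFIT2, ISG20 and OAS2, did not pass. For the difference between the lines' changes, 12 of 15 were called the same way and those of IFIH1 (0.50, adjusted p = 0.0697), IFIT2 and OAS2 (-0.01, adjusted p = 0.965) did not pass. All 18 were called lower in PC9 than in HCC827 in DMSO, as by the brightest probe set.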

How the data were processed

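RNA of PC9 and HCC827 cells was hybridised to 12 Affymetrix arrays, 3 per group. The values are linear intensity on each array for each probe set, made and deposited by the authors with MAS5, per the submitters' processing notes; version and settings are not given in the sources used here. Each array had a 2% trimmed mean of 150, so changes are relative to the total signal, and the table has no detection calls. Precision is limited by 3 arrays per group.

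Of 54675 probe sets, 41091 carried 1 symbol; the brightest per gene by mean over 12 arrays was kept, and genes with a group mean of at least 13 in any group were tested. log2(signal + 8) was fitted in limma 3.58.1 (R 4.3.3), 1 mean per group, moderated with an intensity trend, and Benjamini-Hochberg adjusted over 13185 genes. The script was tested on simulated data, with changes set in PC9 erlotinib alone and no difference between the lines in DMSO. That run checks the fit and not the results given here. Promoter windows are RefSeq's. Where a control 3' to 5' ratio was compared, the exact permutation test was used (scipy 1.17.1).

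The members and all lists were chosen with earlier results of these data known. Full values went to the 6 largest called rises and falls of each contrast among the members, up to 4 called genes of each other list, and promoters of the 4 largest differences between the lines; other members were given values by role.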

Additional observations from a re-analysis of the deposited data

Results flagged for a closer look

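The response to erlotinib differed between the 2 lines for 32 of the 37 members by a test of the difference itself, the PC9 change minus the HCC827 change (limma, Benjamini-Hochberg adjusted over all genes tested), which called 21.2% of all genes in the same direction. On the log2 scale, and among genes called higher in PC9 and lower in HCC827, the difference was 2.85 for IFI44, 2.79 for SAMD9L, 2.46 for IFI6, 2.29 for SAMD9, 1.92 for MX1, 1.70 for DDX60, 1.70 for PARP9, 1.62 for IFITM1, 1.56 for OAS3, 1.38 for DTX3L, 1.30 for OAS1, 1.30 for ISG15 and 1.22 for IRF9. Among those higher in PC9 and not lower in HCC827 it was 2.50 for UBE2L6, 1.93 for TRIM22, 1.56 for IFIT2, 1.55 for MX2, 1.50 for IFIT3, 1.49 for PARP14, 1.11 for IFIH1, 0.98 for EPSTI1, 0.97 for IRF7, 0.92 for BST2, 0.89 for HERC6 and 0.74 for HERC5. Among those lower in HCC827 and not higher in PC9 it was 1.74 for IFI44L, 1.36 for OASL, 1.34 for IFIT1, 1.28 for RSAD2, 1.21 for IFI27, 1.18 for CMPK2 and 0.96 for OAS2. The adjusted p of these differences ran from 1.22e-11 to 0.0163. The list was followed with the opposite movement of the lines already known. IFIT1, OAS2, IFI27, IFI44L, IFITM1, RSAD2, BST2 and CMPK2, counted among the 32, were low in PC9 under both treatments. Their PC9 signals cannot be told from background, so a fall in PC9 could not have been seen. By the treatment protocol, but not by the design text, the culture vessels and plating differed between DMSO and erlotinib. In HCC827 the actin and GAPDH 3' to 5' ratios were higher on every erlotinib array than on every DMSO array. What part culture has in the differences was not tested, and that of RNA integrity was not tested beyond 2 fits. With the actin ratio as a covariate, 31 of the 32 were called. Without the 2 arrays of highest actin ratio, the members' median difference was 1.32.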

How the results depend on the processing

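Alternatives were 1 or 32 in place of 8, quantile normalization, median centring, no filter or a stricter one, the mean of all probe sets, the second brightest probe set (15 members), no intensity trend, 1 line fitted alone, the replicate block, the actin 3' to 5' ratio as a covariate, the fit without both HCC827 erlotinib arrays of the highest ratio, and leaving out each array. No called change reversed. Direction and side of the threshold were kept in every setting by 32 of 37 members in PC9, 25 in HCC827, 32 for the difference between the lines' changes, 37 for the DMSO comparison and 36 for the erlotinib comparison. With the second brightest probe set the counts were 9 higher and 1 lower in PC9, 0 higher and 8 lower in HCC827, 11 higher for the difference, 15 lower in PC9 in DMSO, 15 lower and 0 higher in PC9 in erlotinib, and 5 higher in PC9 and lower in HCC827. These smaller counts follow in part from the smaller number of members with such a probe set. The falls in PC9, 2 as reported, numbered 1 with the constant 32, with no filter, with 1 line fitted alone, with the replicate block, with the actin covariate and without both arrays, 3 with quantile normalization, median centring and the mean of all probe sets, and 1 to 2 over the fits without 1 array. Over the 15 members with a second probe set, the median change was 0.54 by it and 1.13 by the brightest in PC9, -0.64 and -0.54 in HCC827, and 0.76 and 1.30 for the difference. The quantile-normalized data gave 1 member lower for the difference. The 1 member higher in PC9 under erlotinib went to 0 with the constant 1, under the stricter filter (where it was not tested), with the covariate and without both arrays, and was 0 to 1 over the fits without 1 array. The 13 members higher in PC9 and lower in HCC827 numbered 8 with the covariate, 8 without both arrays and 11 to 14 over the fits without 1 array. Apart from effects of fewer members, samples or another probe set, the cause was not tested. Same-numbered arrays did not deviate together: the correlations of their deviations were -0.25, -0.19 and -0.02 in PC9 and 0.01, 0.13 and 0.01 in HCC827, so the numbers were not taken as pairs, and the replicate block left 25 members higher in PC9 and 22 lower in HCC827. Low signals in PC9, without detection calls, limit what can be said of members under the table's median there.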
